A study of Mus musculus with 9 samples.

Results

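The suppressor of cytokine signalling (SOCS) family was described by 8 genes, Socs1 to Socs7 and Cish, chosen by name, of the 54532 Ensembl genes in the deposited expression table. All 8 have a row in the table. RNA had been sequenced from myeloid cells of C57BL/6 mice aged 6 to 8 weeks, in 3 groups of 3 libraries. The KO libraries are labelled as SOCS3 knockout, and the Gr_1 and fl libraries are both labelled wild type. The labels say neither what Gr_1 and fl stand for nor how Socs3 was deleted, in which cells and with which driver, nor whether libraries came from separate or pooled animals. The p-values therefore measure only the spread between these libraries, which may be technical. All comparisons with the libraries labelled KO rest on that label.

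SOCS proteins are feedback inhibitors of cytokine signalling. A cytokine receptor activates Janus kinases (JAKs), these phosphorylate STAT transcription factors, and the STATs switch on target genes that include Socs1, Socs3, Cish and Socs2. The SOCS proteins then bind the receptor or the kinase through an SH2 domain, and through their SOCS box they recruit elongins and a cullin ligase that mark the bound protein for degradation. In myeloid cells SOCS3 is best known for restraining the receptors of interleukin 6 and of granulocyte colony-stimulating factor (G-CSF), which act through STAT3.

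The KO libraries, which share the genotype label, differed among themselves in sex-linked transcripts. FPKM stands for fragments per kilobase of exon and per M fragments, here as scaled in the deposited values. Xist, transcribed from an inactivated X chromosome, stood at 0.0028 FPKM in KO A, 58.5 FPKM in KO B and 26.3 FPKM in KO C. In the same libraries 4 Y-linked genes (Uty, Kdm5d, Eif2s3y, Ddx3y) summed to 26.5, 0 and 14.2 FPKM. KO C lay between KO A and KO B in 61.5% of 12289 genes, against 24.1% for Gr_1 C and 15.6% for fl C within their own groups. The other 6 libraries carried the Y-linked genes, with Xist at or under 0.0104 FPKM. Whether KO C shares RNA with KO A and KO B was not tested. Calls of the genes named below that were lost without KO C, or without KO B and KO C, are marked as such. Depth was between 18.3 and 21.5 M fragments per library. The M fragments by which the deposited values are divided, recovered from the values, differ from this depth. They were 16.0 to 18.2 in Gr_1, below the depth of each library. In KO they were 19.9 to 21.7 and in fl 18.5 to 22.0, above the depth of each library. Per fragment sequenced, levels in Gr_1 are thus raised and those in KO and fl lowered. On this scale 3 fragments on 1 kilobase of exon amount to 0.136 to 0.187 FPKM. That floor covers counting error only.

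Marker genes differed between the groups. The 10 neutrophil markers summed to 69737 to 100229 FPKM in KO, 169065 to 171983 in Gr_1 and 63827 to 71044 in fl. The 10 monocyte markers summed to 844 to 944 FPKM in KO, 501 to 571 in Gr_1 and 1448 to 1629 in fl. The 10 markers of basophils, mast cells and eosinophils summed to 4733 to 9442 FPKM in KO, 1370 to 1764 in Gr_1 and 4114 to 8782 in fl. Most of this sum was Prg2, with a mean of 6252 FPKM in KO and 5333 in fl. Cpa3 averaged 18.3 FPKM in KO and 4.96 in fl, and Mcpt8 averaged 116 and 42.4 FPKM. Of these 10 markers, limma called 6 higher and 0 lower in KO against fl, beside 11.0% of all genes. All 8 marker lists had every gene above 0 in every group. The other lists were lower by sum: 11.2 to 15.3 FPKM in KO, 6.41 to 6.95 in Gr_1 and 2.09 to 2.64 in fl for 8 T cell markers, and 10.9 to 23.2, 2.08 to 2.83 and 5.45 to 7.73 FPKM in the same groups for 6 NK cell markers. The T cell sums of Gr_1 and fl differed mainly by Cd3d, which averaged 4.04 and 0.393 FPKM. Cd3e and Cd8a were lower in Gr_1 than in fl, and the rest of that list was higher by less than Cd3d. The 7 B cell markers summed to 42.9 to 84.8 FPKM in KO, 320 to 347 in Gr_1 and 72.6 to 94.5 in fl. Macrophage markers (8 genes) reached 71.4 to 77.1 FPKM in KO, 90.3 to 101 in Gr_1 and 76.1 to 80.0 in fl, and erythroid markers (6 genes) 81.0 to 91.0, 60.5 to 167 and 21.1 to 55.9 FPKM. In these bulk libraries fewer cells of a type and less RNA per cell cannot be told apart, and the part of cell makeup in the SOCS results was not tested.

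Sequences before the RefSeq start sites used for Socs3 and Socs1 are shown because they hold matches to STAT and interferon regulatory factor (IRF) motifs. Whether any match bears on the levels of these genes was not tested. The sequences are RefSeq upstream sequence on GRCm38.p6, printed 5′ to 3′ on the minus strand with motif letters in capitals. For Socs3 it is chr11:117969452-117969616, for Socs1 chr16:10785537-10785786, in each case the longest stretch of the 250 bases before the RefSeq start site that lies in no annotated exon of the gene (165 bases for Socs3, all 250 for Socs1). The Socs3 stretch lies inside the annotated gene, between the exon blocks 117969375 to 117969451 and 117969786 to 117970047. The start site used for Socs3, at 117969366, falls in no annotated exon block of the gene. Only the Socs1 stretch lies outside its annotated gene.
Socs3: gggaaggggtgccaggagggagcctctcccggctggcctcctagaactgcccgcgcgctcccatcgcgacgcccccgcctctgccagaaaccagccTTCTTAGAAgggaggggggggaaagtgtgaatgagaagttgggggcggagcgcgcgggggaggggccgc
Socs1: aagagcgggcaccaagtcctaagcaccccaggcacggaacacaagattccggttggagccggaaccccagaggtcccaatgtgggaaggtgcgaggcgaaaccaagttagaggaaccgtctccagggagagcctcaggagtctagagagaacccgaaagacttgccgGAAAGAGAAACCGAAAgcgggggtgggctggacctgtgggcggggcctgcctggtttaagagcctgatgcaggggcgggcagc
The capitals in Socs3 are a match to TTCNNNGAA, the STAT motif, which reads the same on both strands and lies 146 to 154 bases before the start site. Of 32851 upstream windows of 250 bases, 7.02% held this motif. The capitals in Socs1 are 2 overlapping matches to GAAANNGAAA, the core of IRF sites, searched on both strands and lying 68 to 83 bases before the start site. This motif, chosen after the sequence was seen, was held by 2.98% of windows, and by 0.180% at least 2 times. TTCNNNNGAA, the motif with a wider spacer, was held by 5.85% of windows and was not found in the windows of Socs1, Socs3, Socs4 and Cish. The 250 bases of Socs4 matched none of the 3 motifs. The Cish window, which lies wholly in annotated exons and is not shown, also matched none of the 3. A match is a run of letters and not a measured site.

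Levels within the family differed by more than 10-fold in each group. FPKM is a level per exon length, so members can be set beside each other, although the exon length of a gene sums over all its annotated transcripts, from 2891 bases for Socs3 to 9531 for Socs2 and 11349 for Socs6, which lowers the level of genes with many rare transcripts. In KO libraries the order of mean levels was Socs3, Socs4, Socs7, Socs6, Socs1, Socs5, Cish and Socs2, with overlap between Socs3 and Socs4 and between Socs1 and Socs5. In Gr_1 libraries it was Socs3, Socs4, Socs7, Socs1, Socs6, Cish, Socs5 and Socs2, with overlap between Cish and Socs5. In fl libraries it was Socs4, Socs7, Socs6, Socs3, Socs5, Socs1, Cish and Socs2, with overlap between Socs4 and Socs7 and between Socs6 and Socs3. The libraries of all other neighbours did not overlap.

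Most of the difference in the summed level came with Socs3. The 8 members together stood at 27.2 ± 1.11 FPKM in KO, 53.1 ± 1.98 in Gr_1 and 23.4 ± 0.626 in fl (mean ± SD, n = 3 each). Without Socs3 the sum was 19.1 ± 0.171, 17.6 ± 0.259 and 19.7 ± 0.601 FPKM in the same groups. Socs3 made up 29.7 ± 3.43% of the family's FPKM in KO, 66.8 ± 1.72% in Gr_1 and 16.1 ± 1.30% in fl.

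**Figure D1:**
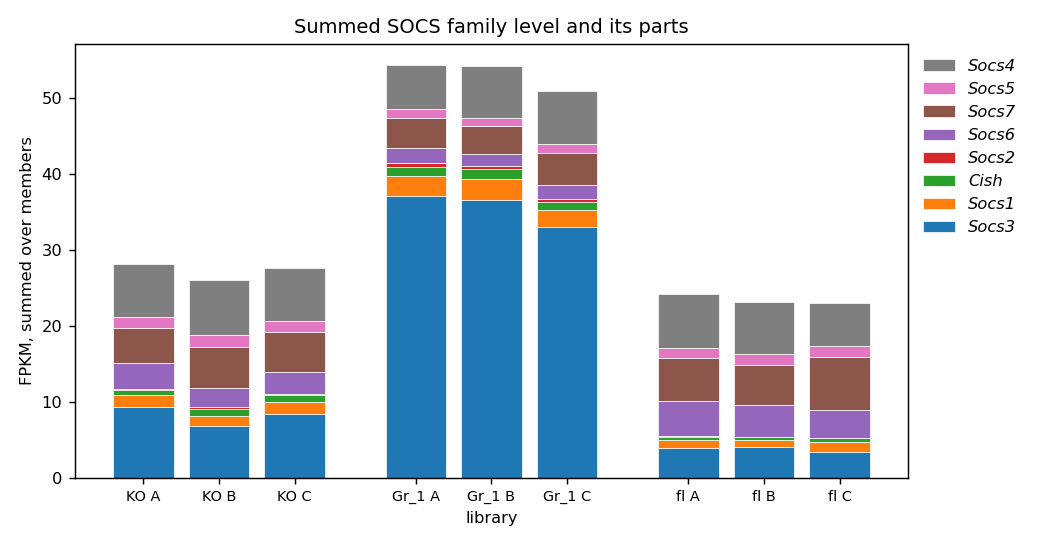
Summed FPKM of the 8 SOCS family genes in each of the 9 libraries, stacked by gene (x axis, library; y axis, FPKM). The Gr_1 bars reach 50.9 to 54.4 FPKM, of which Socs3 is the largest part, while the KO bars reach 26.0 to 28.2 and the fl bars 23.0 to 24.1.

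Socs3 itself, the gene named by the knockout label, had 9.23, 6.76 and 8.37 FPKM in KO A, B and C, against 37.0, 36.6 and 33.0 FPKM in Gr_1 and 3.87, 4.02 and 3.40 FPKM in fl. Each group lay apart from both others, and the libraries labelled KO stood above fl and below Gr_1. Against fl, KO was 2.16-fold higher by mean FPKM, with a difference of 0.93 ± 0.11 in log2(FPKM + 1) (fitted difference ± SE, limma, adjusted p = 0.00136, higher in 3 of 3 libraries). Without KO C the difference was 0.91 (adjusted p = 0.0105), and with KO A as the sole KO library, assumed to vary like the other groups, it was 1.10 (adjusted p = 0.00439). Gr_1 was 9.44-fold higher than fl, a log2 difference of 2.94 ± 0.11 (adjusted p = 5.96e-07). KO against Gr_1 gave -2.01 ± 0.11 (adjusted p = 1.65e-05). For each of these 3 comparisons an exact permutation test, two-sided, had p = 0.1, which is the smallest value possible with 3 libraries in each group.

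Behind these levels stood 425 to 530 fragments in each KO library, 1527 to 1921 in each Gr_1 library and 182 to 246 in each fl library. The gene (ENSMUSG00000053113) spans 117966079 to 117970047 of chromosome 11, minus strand, in GRCm38, and its 3 annotated transcripts cover 4 exon blocks. The coding sequence lies in 1 block, from 117967556 to 117968230, and its 675 bases are 23.3% of the exon length. The deposited value is a sum over all 4 blocks, so it cannot show whether coding sequence is missing from the transcript.

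Among the KO libraries, KO A was the highest and KO B the lowest both for Socs3 and for the summed neutrophil markers (100229 and 69737 FPKM, with 82489 in KO C). In fl the order was reversed. There fl C had the highest marker sum (71044 FPKM) and the lowest Socs3, and fl B the lowest sum (63827 FPKM) and the highest Socs3. Gr_1 A had the lowest sum of its group (169065 FPKM) and the highest Socs3. These sums are mostly S100a9, S100a8, Ngp and Camp, whose means differ less between groups than those of the other markers listed. S100a9 averaged 32691 FPKM in KO, 67025 in Gr_1 and 26569 in fl, and Ly6g averaged 107, 684 and 9.99 FPKM. Of the 10 markers, limma called 5 higher and 0 lower in KO against fl, beside 11.0% of all genes. In Gr_1 against fl it called 9 higher and 0 lower, beside 61.4%. The part of neutrophil RNA in the Socs3 level was not tested.

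Socs1, which inhibits JAKs directly and restrains interferon signalling, followed the order of Socs3 with smaller steps. It had 1.57, 1.38 and 1.61 FPKM in KO, against 2.70, 2.67 and 2.19 FPKM in Gr_1 and 1.05, 0.911 and 1.26 FPKM in fl. No library of one group overlapped with those of another. Gr_1 against fl gave a log2 difference of 0.76 ± 0.10 (limma, adjusted p = 0.000228), with Gr_1 2.35-fold higher. KO against Gr_1 gave -0.48 ± 0.10 (adjusted p = 0.00378), and -0.45 with adjusted p = 0.0737 when KO A was the sole KO library. KO against fl gave 0.28 with a 95% interval from 0.05 to 0.51, which missed the threshold after adjustment (adjusted p = 0.116, higher in 3 of 3 libraries). Socs1 (ENSMUSG00000038037) spans 10782240 to 10785536 of chromosome 16, minus strand.

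Cish, whose protein CIS restrains signalling through STAT5, had 0.682, 0.931 and 0.831 FPKM in KO, 1.17, 1.36 and 1.12 FPKM in Gr_1, and 0.446, 0.353 and 0.472 FPKM in fl. The 3 groups did not overlap. Gr_1 libraries were the ones that reached 1 FPKM, so the gene entered the test through the group where it was highest, and its difference between Gr_1 and the other groups was partly set by that filter. The log2 difference was 0.64 ± 0.10 for Gr_1 against fl (limma, adjusted p = 0.000663) and -0.29 ± 0.10 for KO against Gr_1 (adjusted p = 0.0386). The call for KO against Gr_1 was lost without KO A (adjusted p = 0.104), KO C (0.0882), Gr_1 A (0.0727), Gr_1 B (0.125), Gr_1 C (0.0550) or fl A (0.0542), and also with the scaling that leaves out the 10 most abundant genes (0.123) or with KO A as the sole KO library (-0.40, adjusted p = 0.0882). KO against fl gave 0.35 with a 95% interval from 0.12 to 0.58 (adjusted p = 0.0636), a 1.92-fold higher mean. It passed with voom on the recovered fragments, at 0.95 (adjusted p = 0.00975), a fit that adds no pseudocount of 1 FPKM, and at 0.39 with the 10 most abundant genes left out of the scaling (0.0401). With quantile normalization it was 0.16 (adjusted p = 0.391). Cish lies on chromosome 9 from 107296026 to 107302784. The genes Gm17040 and Gm17041 on the other strand share 4.07% and 7.46% of its exon bases and reached at most 0.0941 and 0 FPKM.

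Socs2, an inhibitor of growth hormone signalling, was the least abundant member and did not reach the filter, so it was not tested in the fit. It had 0.185, 0.217 and 0.145 FPKM in KO, 0.484, 0.347 and 0.373 FPKM in Gr_1 and 0.134, 0.106 and 0.0794 FPKM in fl. Again the groups did not overlap, with Gr_1 highest and fl lowest, on 30 to 45, 57 to 74 and 14 to 28 fragments per library. The mean in Gr_1 was 3.78-fold that in fl, and the mean in KO was 1.71-fold that in fl. With no filter on low values, limma gave adjusted p = 0.00106 for Gr_1 against fl, 0.00680 for KO against Gr_1 and 0.385 for KO against fl.

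**Figure D2:**
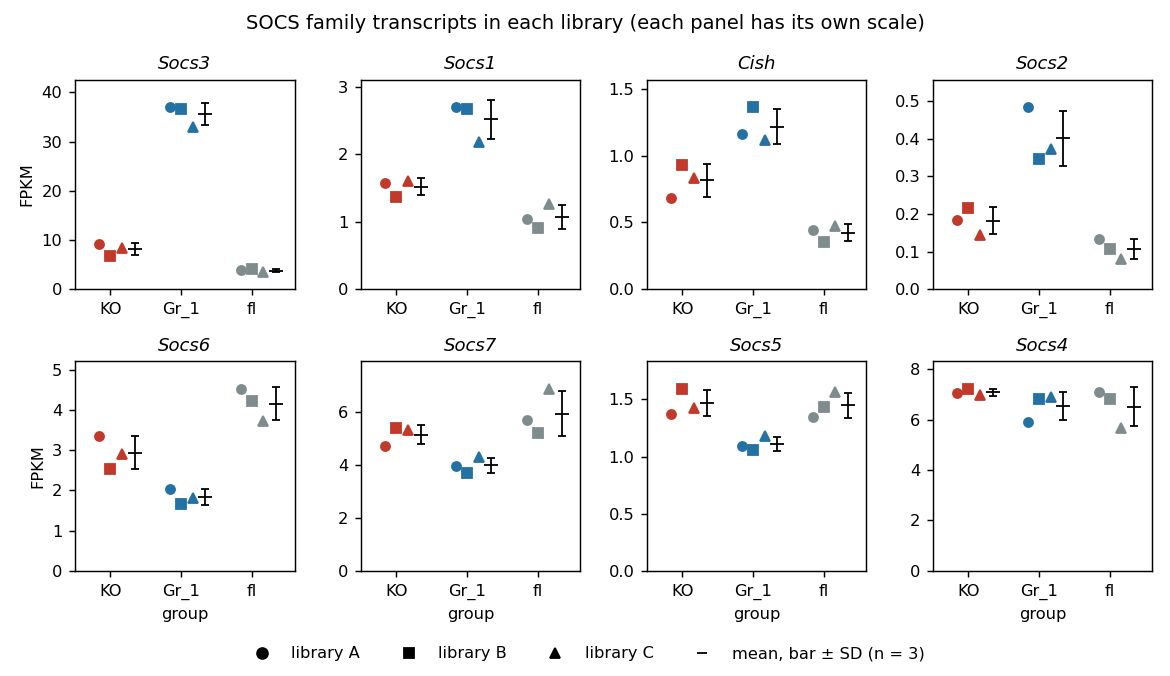
FPKM of each SOCS family gene in every library (1 panel per gene, each with its own y axis from 0; x axis, group; symbols, libraries A, B and C; black bars, mean ± SD, n = 3). Socs3, Socs1, Cish and Socs2 are highest in Gr_1 and lowest in fl, Socs6 is highest in fl and lowest in Gr_1, and Socs4 overlaps between Gr_1 and fl.

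Socs6 and Socs7 belong to the part of the family with long N-terminal regions, linked mainly to insulin and receptor tyrosine kinase signalling, and both stood in the opposite order. Socs6 had 3.36, 2.54 and 2.90 FPKM in KO, 2.05, 1.65 and 1.81 FPKM in Gr_1 and 4.53, 4.23 and 3.72 FPKM in fl. No library overlapped between groups. It fell in Gr_1 against fl by 0.86 on the log2 scale (SE 0.10, limma, adjusted p = 0.000127), to a mean 0.442 times that of fl. KO was higher than Gr_1 by 0.47 ± 0.10 (adjusted p = 0.00466). KO against fl gave -0.39 ± 0.10 and passed narrowly (adjusted p = 0.0435). That call was lost without KO B (0.101), KO C (0.133), Gr_1 A (0.0585), Gr_1 B (0.0616), Gr_1 C (0.0643), fl A (0.124) or fl B (0.118), and held without KO A (0.0301) or fl C (0.0370). With KO A as the sole KO library it was -0.24 (adjusted p = 0.375), and with the 10 most abundant genes left out of the scaling -0.33 (adjusted p = 0.106). Socs6 lies on chromosome 18.

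Socs7 had 4.72, 5.37 and 5.32 FPKM in KO, 3.97, 3.71 and 4.29 FPKM in Gr_1 and 5.69, 5.22 and 6.87 FPKM in fl. The KO and fl libraries overlapped, and the Gr_1 libraries lay below both. Gr_1 against fl gave -0.47 ± 0.10 (limma, adjusted p = 0.00301). KO against Gr_1 gave 0.30 ± 0.10 (adjusted p = 0.0288), a call lost without KO B (0.0836), KO C (0.0887), Gr_1 A (0.0688) or Gr_1 B (0.0957), and at 0.20 with KO A as the sole KO library (0.357). KO against fl gave -0.17 with a 95% interval from -0.39 to 0.06 (adjusted p = 0.321).

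Socs4 and Socs5, a related pair linked in mice and cell lines to signalling through the EGF receptor, showed the smallest differences. Socs4 had 7.03, 7.22 and 6.97 FPKM in KO, 5.90, 6.82 and 6.91 FPKM in Gr_1 and 7.08, 6.81 and 5.65 FPKM in fl. The KO and Gr_1 libraries overlapped with those of fl, while the lowest KO library stood just above the highest Gr_1 library. The 95% interval of the log2 difference was -0.09 to 0.31 for KO against fl, -0.20 to 0.21 for Gr_1 against fl and -0.10 to 0.30 for KO against Gr_1 (limma, adjusted p = 0.483, 0.950 and 0.362).

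Socs5 had 1.38, 1.59 and 1.42 FPKM in KO, 1.09, 1.05 and 1.18 FPKM in Gr_1 and 1.35, 1.44 and 1.56 FPKM in fl. The Gr_1 libraries were the lowest, and those of KO and fl overlapped. KO against fl had an interval from -0.18 to 0.20 (limma, adjusted p = 0.963). Gr_1 against fl gave -0.21 (interval -0.41 to -0.02, adjusted p = 0.0524). It passed with voom (adjusted p = 0.0270), with quantile normalization (0.0231) and with the 10 most abundant genes left out of the scaling (0.0201). KO against Gr_1 gave 0.22 ± 0.08 (adjusted p = 0.0494), which was lost without any single library except fl C (adjusted p up to 0.141), and at 0.17 with KO A as the sole KO library (0.348).

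Counted over the family, KO against fl had 1 of 7 tested members higher (Socs3) and 1 lower (Socs6), where limma called 11.0% of all 12289 genes, 4.48% higher and 6.52% lower. The libraries of the groups did not overlap for 4 of 7 tested members (5 of 8 with Socs2), and for 31.4% of all genes tested. With Socs6 lost, 1 member was called without KO B, KO C, any single Gr_1 library, fl A or fl B. Gr_1 against fl had 3 higher (Socs3, Socs1 and Cish) and 2 lower (Socs6 and Socs7), where 61.4% of all genes were called, 30.0% higher and 31.4% lower, so the family's share was near the background. Cish is in this count, and in that of KO against Gr_1 below, although it reached 1 FPKM in Gr_1 libraries alone. KO against Gr_1 had 3 lower (Socs3, Socs1 and Cish) and 3 higher (Socs6, Socs7 and Socs5), where 55.7% of all genes were called, 26.7% higher and 28.9% lower. The groups did not overlap for 6 of 7 tested members in Gr_1 against fl and for 7 of 7 in KO against Gr_1, beside 67.5% and 68.2% of all genes tested. With Socs2 it was 7 of 8 and 8 of 8. The count of members called in KO against Gr_1 was 3 without KO C, Gr_1 A or Gr_1 B, and 2 without KO B and KO C together. The last comparison shares its Gr_1 libraries with the second and its KO libraries with the first, and the calls are not independent. The median difference of the 7 tested members was 0.11, 0.01 and 0.10 in the 3 comparisons, and that of all genes was -0.01, -0.03 and 0.01. The mean of KO lay between those of Gr_1 and fl for 6 of 8 members, all but Socs4 and Socs5. The untested Socs2 is among these 6. Over all genes tested the share was 57.0%.

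**Figure D3:**
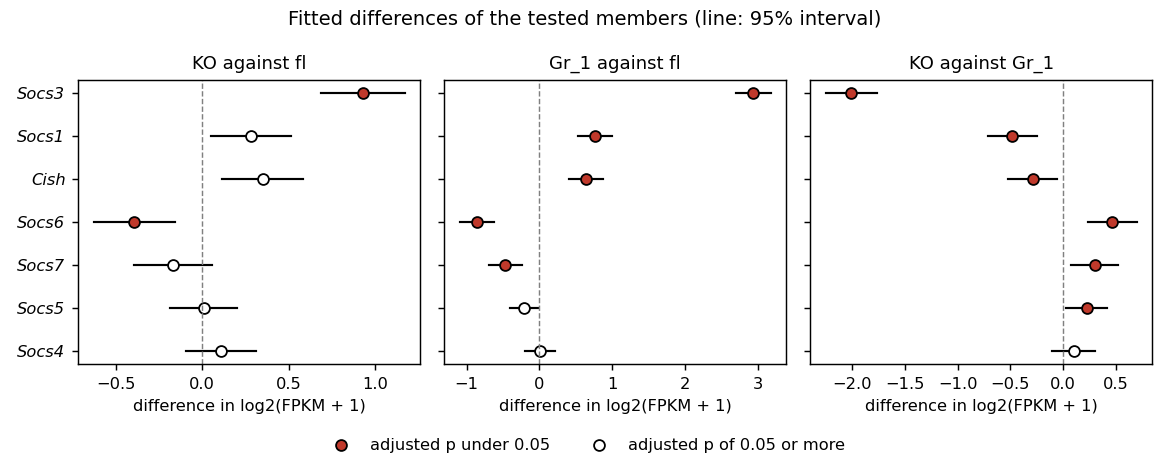
Fitted difference in log2(FPKM + 1) for the 7 tested SOCS family genes in the 3 comparisons (x axis, difference, with its own scale in each panel; dots, fitted value; lines, 95% interval; filled dots, adjusted p under 0.05). Socs3 has the largest difference in all 3 panels, at 0.93, 2.94 and -2.01, and Socs4 is near 0 in each.

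For likeness, log2(FPKM + 1) was centred on each gene's mean over the 9 libraries, and the root mean square difference from a member was taken over 12272 other genes with a symbol. The 5 genes nearest to Socs3 were Tinagl1, Snai1, Ggt5, Slc2a3 and Gm7514, at 0.103 to 0.121, against a median of 1.26 over all genes compared. The nearest, Tinagl1, averaged 8.73 FPKM in KO, 35.5 in Gr_1 and 4.47 in fl. Slc2a3, a glucose transporter of leukocytes, averaged 44.4, 161 and 19.9 FPKM in the same groups. For Socs1 the 3 nearest were 4930438A08Rik, Zdhhc3 and Ksr1 (0.0509 to 0.0686), and for Cish they were Tns1, Msrb2 and Sipa1l1 (0.0597 to 0.0697). For Socs6 they were Ahcyl2, the NF-kappaB kinase gene Ikbkb, and Plekhh3 (0.0572 to 0.0838). Those of Socs7 were Higd1a, Ppa2 and Babam1 (0.0496 to 0.0548), and those of Socs5 were Psmf1, Maml3 and Rad54l2 (0.0350 to 0.0425). With 3 groups and 9 libraries many genes share such a pattern, and likeness here is a description.

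The counts in the lists that follow stand beside 11.0% of all genes called in KO against fl (4.48% higher, 6.52% lower) and 61.4% in Gr_1 against fl (30.0% higher, 31.4% lower). The receptors that SOCS3 is known to restrain moved in both directions. In KO against fl, 2 of 6 tested rose and 2 fell (limma, list median -0.12). Csf3r, the G-CSF receptor, averaged 179 ± 53.5 FPKM in KO, 558 ± 28.1 in Gr_1 and 98.4 ± 0.476 in fl. It was higher in KO than in fl by 0.82 ± 0.18 on the log2 scale (adjusted p = 0.0226), a call lost without any single fl library (0.0562 to 0.0707) or KO C (0.0815). Il6ra, the ligand-binding chain for interleukin 6, averaged 18.7 ± 1.90 FPKM in KO, 23.6 in Gr_1 and 36.9 ± 1.46 in fl. Il6st, which encodes the shared signalling chain gp130, averaged 3.13 ± 0.173, 1.76 ± 0.385 and 6.20 ± 0.562 FPKM. Both were lower in KO than in fl (adjusted p = 0.000522 and 0.00269). Il27ra, of the interleukin 27 receptor, was higher in KO than in fl by 0.58 (adjusted p = 0.0121) but entered the test through the KO libraries and was lost without KO C (0.0506). Without KO C, 0 members rose and 2 fell. In Gr_1 against fl, Csf3r was higher by 2.49 and 4 of 6 were lower, among them Lifr, which reached 1 FPKM in fl libraries alone. Il6st was lower by -1.39 and Il6ra by -0.62 (adjusted p = 8.77e-06 for Csf3r, 1.2e-05 for Il6st and 0.00022 for Il6ra).

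The kinases and transcription factors between receptor and SOCS gene were all measured. In KO against fl, 1 of 11 JAK and STAT genes rose and 1 fell (limma, list median -0.03). Stat4, the STAT of interleukin 12 signalling, averaged 4.22 ± 0.234 FPKM in KO and 2.79 ± 0.240 in fl (log2 difference 0.46, adjusted p = 0.00614). Tyk2, a JAK of interferon and interleukin 12 receptors, averaged 14.7 ± 0.785 FPKM in KO and 21.3 ± 1.60 in fl (-0.51, adjusted p = 0.00307). In Gr_1 against fl 6 rose and 2 fell (median 0.47). Jak1 averaged 67.5 ± 1.35 FPKM in Gr_1 and 33.0 ± 1.90 in fl, a log2 difference of 1.01 (adjusted p = 6.85e-06), and Stat4 was higher by 0.81 (adjusted p = 3.27e-05). Tyk2 was lower by -0.91 and Stat5a by -0.24 (adjusted p = 1.28e-05 and 0.00854). Stat3, which drives Socs3 transcription after interleukin 6 and G-CSF, averaged 28.7 ± 2.08 FPKM in KO, 44.2 ± 1.23 in Gr_1 and 29.5 ± 2.24 in fl, and was named after its values were seen.

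Receptors known to be limited by CIS, SOCS1 or SOCS2 had 1 of 16 tested members higher and 2 lower in KO against fl (limma, list median -0.04). Il2rb, a chain of the interleukin 2 and 15 receptors found on NK and T cells, averaged 6.81 ± 2.19 FPKM in KO and 2.12 ± 0.699 in fl (log2 difference 1.31, adjusted p = 0.0127, and 0.0524 without KO C). The summed NK cell markers were 10.9 to 23.2 FPKM in KO and 5.45 to 7.73 FPKM in fl, and their part in the Il2rb result was not tested. The interferon receptor genes Ifngr1 and Ifnar2 were lower by -0.36 and -0.32 (adjusted p = 0.0289 and 0.0413). Neither was called without KO C, Gr_1 B, fl A or fl B, where Ifngr1 had adjusted p up to 0.0987 and Ifnar2 up to 0.127. Ifngr1 was also lost without KO A (0.0761), under the scaling without the 10 most abundant genes (0.107) and with quantile normalization (0.166), and Ifnar2 without KO B (0.0954), Gr_1 A (0.0682), Gr_1 C (0.0626) or fl C (0.0676) and under that scaling (0.0591). The list then held 0 calls without KO C and 1 without Gr_1 B, fl A or fl B. In Gr_1 against fl 5 rose and 4 fell (median 0.23), and 1 of the 5, Il2ra, reached 1 FPKM in Gr_1 libraries alone. Il7r averaged 7.19 ± 0.267 FPKM in Gr_1 and 1.34 ± 0.266 in fl, and Il4ra averaged 25.1 ± 0.813 and 13.9 ± 1.07 (log2 differences 1.81 and 0.81, adjusted p = 2.88e-06 and 2.4e-05). The summed B cell markers were 320 to 347 FPKM in Gr_1 and 72.6 to 94.5 in fl, and their part in the Il7r result was not tested. Ifngr1 and the interleukin 3 receptor gene Il3ra fell by 1.06 and 0.79 (adjusted p = 1.4e-05 and 0.000119).

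Among 6 tested receptors with kinase activity, 1 rose and 2 fell in KO against fl (limma, list median 0.24). Igf1r, the receptor for insulin-like growth factor 1, averaged 11.6 ± 0.383 FPKM in KO and 8.42 ± 0.622 in fl (log2 difference 0.42, adjusted p = 0.0114). Csf1r, the macrophage colony-stimulating factor receptor and a monocyte marker, averaged 47.1 ± 10.6 FPKM in KO and 105 ± 2.69 in fl (-1.16, adjusted p = 0.00179). Met, the hepatocyte growth factor receptor gene, was lower by -0.54 (adjusted p = 0.0410), and was lost without any single library except fl C (adjusted p up to 0.126). It was also lost with a pseudocount of 0.1 (0.0667) and under the scaling without the 10 most abundant genes (0.0821). In Gr_1 against fl 2 rose and 4 fell (median -0.49), with Igf1r higher by 1.10 and the insulin receptor gene Insr by 0.62 (adjusted p = 8.58e-06 and 4.01e-05), and Csf1r and Met lower by -1.41 and -1.32 (adjusted p = 4.91e-05 and 6.09e-05).

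The SOCS box recruits elongins, a cullin and their partners. Of 11 such genes limma called 0 in KO against fl, beside 11.0% of all genes, with 3 at an unadjusted p under 0.05, all lower, and 0 called by voom (list median -0.08). Elob, which encodes elongin B, averaged 58.5 ± 5.54 FPKM in KO, 76.0 ± 5.68 in Gr_1 and 67.5 ± 2.47 in fl. In Gr_1 against fl 3 rose and 1 fell (median -0.14). Arih1 and Arih2, ubiquitin ligases that work with cullins, were higher by 0.78 and 0.38 (adjusted p = 0.000177 and 0.00324), and Rnf7, the RING partner of Cul5, was lower by -0.55 (adjusted p = 0.000456).

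Of 28 other genes of SOCS box proteins 12 were tested. Limma called 1 higher and 0 lower in KO against fl (list median -0.06), with 2 lower at an unadjusted p under 0.05 and 0 lower by voom. The riser was Asb7, an ankyrin repeat protein gene, at 6.51 ± 0.756 FPKM in KO, 17.8 ± 1.10 in Gr_1 and 4.60 ± 0.383 in fl. Its difference in KO against fl (0.42, adjusted p = 0.0220) was lost without KO A (0.0601), KO C (0.0923), fl A (0.0743) or fl B (0.0704), leaving 0 calls in the list. In Gr_1 against fl 4 rose and 2 fell (median -0.03). Asb7 was higher by 1.75 and Wsb2 by 0.27 (adjusted p = 2.12e-06 and 0.0178), while Asb13 and Lrrc41 were lower by -0.44 and -0.25 (adjusted p = 0.00555 and 0.0350). Lrrc41 was lost without Gr_1 C (0.0932), fl C (0.0851) or Gr_1 A. Wsb2 was lost under the scaling without the 10 most abundant genes (0.0940), and the list then had 3 calls.

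Other restraints of the pathway, phosphatases, PIAS proteins and adaptors, had 0 of 14 members higher and 2 lower in KO against fl (limma, list median -0.08), with 5 at an unadjusted p under 0.05, all lower, and 0 higher by voom. The phosphatase gene Dusp3 averaged 3.22 ± 0.0159 FPKM in KO and 8.04 ± 0.525 in fl (log2 difference -1.10, adjusted p = 0.00333). Ptpn1, whose product PTP1B removes phosphate from JAK2 and TYK2, averaged 38.6 ± 4.14 and 53.5 ± 5.53 FPKM (-0.46, adjusted p = 0.0186), and was lost without KO C (0.0602), which left 1 call. In Gr_1 against fl 8 rose and 3 fell (median 0.24), where 61.4% of all genes were called. Cbl, a ubiquitin ligase of activated receptors, and Pias3, an inhibitor of STAT3, were higher by 0.39 and 0.60 (adjusted p = 0.00118 and 0.00177), and Dusp3 and Pias2 were lower by -1.88 and -0.40 (adjusted p = 1.69e-05 and 0.000636).

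Of 19 tested STAT target genes outside the family, 13 rose and 1 fell in Gr_1 against fl, where limma called 30.0% of all genes higher and 31.4% lower. The list median was 0.57, beside -0.03 for all genes. This list, like the others, was chosen with earlier results of these data known. Osm, which encodes the cytokine oncostatin M, averaged 231 ± 14.7 FPKM in Gr_1 and 91.2 ± 1.08 in fl (log2 difference 1.33, limma, adjusted p = 1.72e-06). Lrg1, a glycoprotein gene of neutrophil granules, averaged 157 ± 15.8 FPKM in KO, 411 ± 50.4 in Gr_1 and 92.2 ± 6.98 in fl. Gfi1, a repressor of granulocyte progenitors, was the gene that fell, by 1.17 (adjusted p = 0.00025). In KO against fl 4 rose and 2 fell, beside 11.0% of all genes called, with a median of 0.01. Lrg1 and the interleukin 1 antagonist gene Il1rn were higher by 0.76 and 1.27 (adjusted p = 0.00391 and 0.0172). Il1rn was lost without fl A (0.0546), fl B (0.0655) or KO C (0.0670). Junb and the kinase gene Pim1 were lower by -0.51 and -0.60 (adjusted p = 0.00491 and 0.00614). Pim1 was lost with quantile normalization (-0.43, adjusted p = 0.0575). Leaving out fl A, fl B or KO C, 1 rose and 2 fell. The neutrophil marker sums given above were also highest in Gr_1, and their part in these results was not tested.

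With KO A as the sole KO library, several list calls in KO against fl were lost. Of the genes named, Stat4 then had an adjusted p of 0.0916, Tyk2 0.0608, Il6st 0.0625, Il27ra 0.147, Il2rb 0.182, Ifngr1 0.0945, Ifnar2 0.341, Igf1r 0.0928, Met 0.296, Dusp3 0.0620, Ptpn1 0.181, Junb 0.0559 and Pim1 0.0538 (limma). The JAK and STAT list and the other restraints then held 0 calls, the receptors limited by SOCS3 had 1 higher and 1 lower, the kinase receptors 0 higher and 1 lower, and the STAT targets 3 higher and 0 lower.

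**Figure D4:**
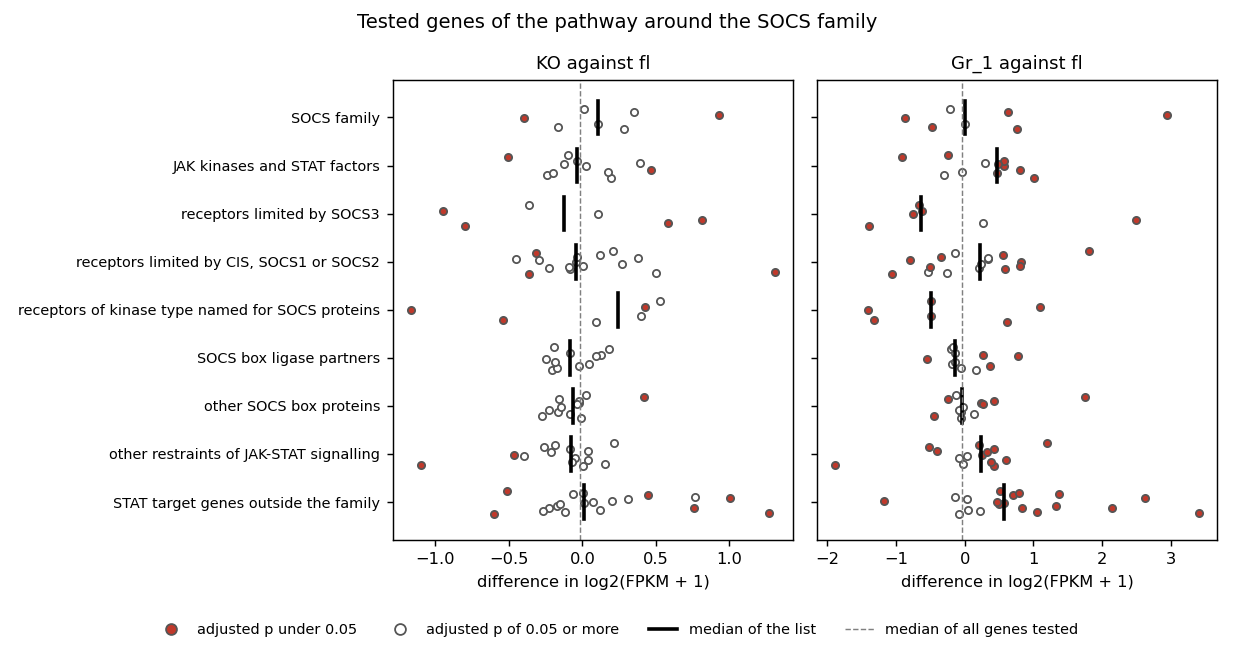
Fitted difference in log2(FPKM + 1) of every tested gene in the SOCS family and in 8 lists of its pathway (x axis, difference; rows, lists; dots, genes, filled where adjusted p is under 0.05; black bars, list medians; dashed line, median of all genes tested). In the panel of Gr_1 against fl the STAT targets have a median of 0.57 and the JAK and STAT genes of 0.47, while in KO against fl the list medians lie between -0.12 and 0.24.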

How the data were processed

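The authors deposited FPKM values, per the file headers, in 1 table of 54532 Ensembl genes and 9 libraries. The submitters' processing notes name featureCounts 1.5.0-p3, DESeq2 1.16.1 and the builds mm10 and GRCm38. For the aligner, the name was not given in the sources used here. Symbols, exons and coordinates came from GENCODE M21 on GRCm38 (54409 genes matched, 123 did not). FPKM times exon length, in steps of a size fitted per library, gave whole fragments within 0.02 for 97.2% to 97.5% of values under 1000 fragments.

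The filter asked for 3 libraries with 1 FPKM or more and kept 12289 genes, and log2(FPKM + 1) of all 9 libraries entered 1 limma fit (version 3.58.1, R 4.3.3) with the trend option, a term for each group and 6 residual degrees of freedom. Such differences understate the change of low genes. All tests are two-sided. Benjamini-Hochberg adjustment ran over all genes, and calls are at an adjusted p under 0.05. SDs are over 3 libraries. The fit was tested on simulated data. From each list the called genes with the smallest adjusted p are named, up to 2 per direction in KO against fl and in Gr_1 against fl, or the most abundant where none is called. The members and lists were chosen with earlier results of these data known. Fits that left out libraries kept the same 12289 genes. Upstream sequences are from RefSeq, and 4 of 8 members were matched, 3 of them with bases outside annotated exons. Python 3.11.15, pandas 2.3.3, scipy 1.17.1 and matplotlib 3.10.9 were used.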

Additional observations from a re-analysis of the deposited data

How the results depend on the processing

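Socs3 kept its direction and its side of the threshold in all 3 comparisons under the 18 alternatives run, with log2 differences from 0.84 to 1.10 for KO against fl, 2.83 to 3.23 for Gr_1 against fl and -2.14 to -1.83 for KO against Gr_1. The count of members called in KO against fl, 2 as reported, was 1 with a pseudocount of 0.1, with no filter, with a filter at 5 FPKM (3 members tested), with the compared groups alone and without KO B and KO C (added after seeing the data), and 1 to 2 when single libraries were left out. With the 10 most abundant genes left out of the scaling it stayed at 2, with Cish called and Socs6 not. For Gr_1 against fl it was 2, not 5, with the filter at 5 FPKM. For KO against Gr_1, 6 as reported, it was 2 with that filter and 2 without KO B and KO C, and 3 to 6 when single libraries were left out. The cause of the lower counts was not tested where no gene or library was removed. Directions that were never called turned round for Socs5 in KO against fl, at -0.038 with quantile normalization and -0.043 without KO B and KO C, with a range of -0.028 (without KO B) to 0.042 when single libraries were left out, and -0.022 without fl A. They did so for Socs4 in Gr_1 against fl, at -0.083 with the 10 most abundant genes left out of the scaling and -0.0082 with quantile normalization, with a range of -0.079 (without fl C) to 0.070 when single libraries were left out, -0.020 without Gr_1 B and -0.028 without Gr_1 C. Leaving those 10 genes out moved the median of all genes in KO against Gr_1 to 0.16, against 0.01 as reported. With the replicate block, the letter of the titles as a term, 2, 5 and 4 members were called in the 3 comparisons. Over genes, the deviations of libraries with the same letter had r from -0.062 to 0.14, and those of other pairs from -0.13 to 0.082. With 3 libraries per group these values cannot settle whether the letters pair the libraries. Counts were lowest for Socs2, with 14 to 74 fragments per library, then for Socs1 (55 to 141) and Cish (47 to 159).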

Other observations

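In KO against Gr_1, which shares its libraries with the other comparisons, the pathway lists were counted as well, beside 55.7% of all genes called (limma). STAT target genes outside the family had 2 of 19 higher and 14 lower (median log2 difference -0.65), other restraints of JAK-STAT signalling 3 of 14 higher and 8 lower (-0.43), and JAK and STAT genes 1 of 11 higher and 6 lower (-0.35). Receptors with kinase activity had 3 of 6 higher and 2 lower (0.51), and receptors limited by SOCS3 had 3 of 6 higher and 2 lower (0.30). Il27ra, 1 of the 3 higher in the latter list, reached 1 FPKM in KO libraries alone. Receptors limited by CIS, SOCS1 or SOCS2 had 6 of 16 higher and 7 lower (-0.07). Il2ra, 1 of those 7, reached 1 FPKM in Gr_1 libraries alone. SOCS box ligase partners had 2 of 11 higher and 3 lower (-0.04), and other SOCS box genes 0 of 12 higher and 4 lower (-0.14). For the last list 0 were higher at an unadjusted p under 0.05 and by voom, and without KO C or Gr_1 B 2 were lower. Without KO B and KO C together, the restraints had 1 higher and 4 lower, the receptors limited by SOCS3 2 and 1, those limited by CIS, SOCS1 or SOCS2 3 and 5, the ligase partners 0 and 1, and the other SOCS box genes 0 and 1.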
